A study of Arabidopsis thaliana with 6 samples.

Results

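The genes described here are the 41 late embryogenesis abundant (LEA) protein genes of Arabidopsis thaliana outside the dehydrin family, picked by locus identifier from the 33602 loci of the count files. They were measured by RNA sequencing of whole 1-day-old seedlings, in 3 libraries of the mutant line vil1-1, labelled vil1 mutant, and 3 libraries of the wild type Col-0. VIL1 encodes a PHD finger protein that works with Polycomb repressive complex 2. Seeds of both genotypes were cold-stratified in darkness, then germinated on Murashige and Skoog plates set with Phytagel, in long days, and no treatment is named. The labels do not say how many seedlings a library pooled. The comparison asks which transcripts differ between the genotypes just after germination. In such whole-seedling RNA, more cells of a type and more RNA per cell cannot be told apart.

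LEA proteins are mostly small, hydrophilic and unstructured in solution, and they build up in the embryo as the seed dries. They protect membranes and enzymes during desiccation, and many of their genes are switched on by abscisic acid (ABA) through the transcription factors ABI3 and ABI5. Their transcripts are normally lost as the seedling establishes, while a smaller set is used by vegetative tissue under cold, drought or oxidative stress. By conserved domain the genes fall into LEA_4 with 18 members, seed maturation proteins (SMP) with 6, LEA_3 with 4, LEA_1, LEA_2 and PvLEA18 with 3 each, and LEA_5 and AtM with 2 each. By textbook knowledge of where they are used, 24 were put in a seed class and 9 in a vegetative class, and the other 8 were left unassigned.

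The data come in 2 forms. The count files held 46917, 49341 and 63303 counts in vil1-1 replicates 1, 2 and 3, and 48868, 66546 and 64554 counts in Col-0 replicates 1, 2 and 3. Levels are given as CPM, a gene's count scaled to a fixed library total, and 1 count was worth 15.0 to 21.3 CPM. A gene at 0 may still have held up to 3 counts' worth of transcript, or 45.1 to 63.9 CPM, by counting error only. The authors' deposited table lists 25005 genes, each with its log2 fold change (vil1-1 relative to Col-0), its average level, an F score and an unadjusted p, but no value for any library. VIL1 itself had 0 counts in all 6 libraries, so the counts do not check the genotype labels, and the authors' deposited table puts it at a log2 fold change of -0.91 (Benjamini-Hochberg adjusted p = 0.000309).

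Most LEA genes with a measurable level were higher in vil1-1. Of the 41 genes, 39 are listed in the authors' deposited table, where 23 rose in vil1-1, 1 fell and 15 were not called at an adjusted p under 0.05. Among all 25005 genes in the authors' deposited table, 3.56% were called higher and 3.58% lower, 7.13% in either direction. Across the 39 listed LEA genes the authors' deposited table gave a median log2 fold change of 1.17, beside -0.05 over all its genes. In the counts 22, 22 and 24 LEA genes were detected in vil1-1 and 16, 18 and 17 in Col-0, and the mean CPM was higher in vil1-1 for 26 genes and lower for 4. AT2G03740 (LEA_4) and AT2G33690 (PvLEA18) are not listed and had 0 counts in every library. As many as 10137 genes of the authors' deposited table had no count in any of the 6 libraries, and the libraries behind it are not stated. Its calls therefore cannot be set against the spread between the 6 libraries. The approximate 95% intervals given with many of its fold changes come from the same F score as its p-values and do not supply that spread.

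**Figure D1:**
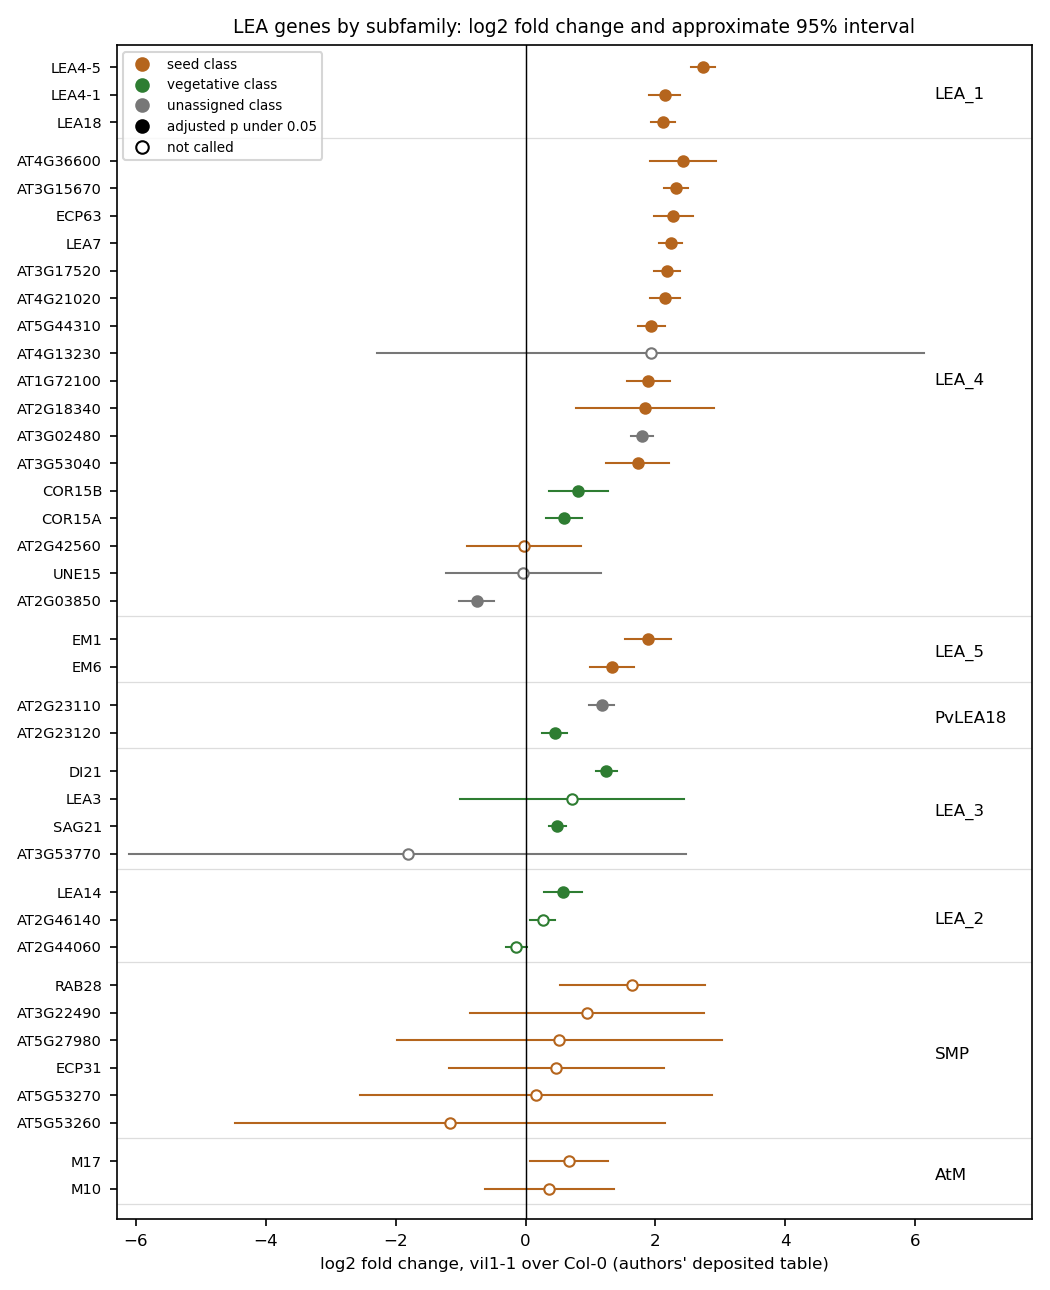
Log2 fold change, vil1-1 relative to Col-0 (horizontal axis), for the 39 listed LEA genes (rows, grouped by subfamily), from the authors' deposited table; lines are approximate 95% intervals from the authors' F score, filled circles an adjusted p under 0.05, and colours the seed, vegetative and unassigned classes. LEA_1 and most LEA_4 genes lie near 2, the vegetative genes between -0.14 and 1.25, and the SMP genes have wide intervals.

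All 3 LEA_1 genes rose, and LEA4-5 had the largest log2 fold change of the 39 LEA genes in the authors' deposited table. These encode small hydrophilic proteins that accumulate in dry seeds and, for LEA4-5, also under water shortage, where the protein protects enzyme activity. LEA4-5 (AT5G06760, chromosome 5, 2089445 to 2090430, minus strand, TAIR10.1) had 10, 15 and 15 counts in vil1-1 and 1, 2 and 2 counts in Col-0. Every vil1-1 library lay above every Col-0 library, at 251.4 ± 47.1 CPM in vil1-1 and 27.2 ± 5.8 CPM in Col-0 (SD, n = 3 each). Its log2 fold change from the counts was 3.10 (SE 0.54, edgeR quasi-likelihood adjusted p = 5.79e-05), and 2.74 (interval 2.55 to 2.92) in the authors' deposited table. LEA4-5 passed the filter on low counts through its vil1-1 counts only, so it had to be high in vil1-1 to be tested. LEA18 (AT2G35300) had 4, 11 and 2 counts in vil1-1 and 1, 0 and 1 in Col-0. LEA4-1 (AT1G32560) had 1, 6 and 3 counts in vil1-1 and 0, 1 and 1 in Col-0. For both genes the vil1-1 CPM ranges lay above those of Col-0, with vil1-1 replicate 2 highest. For LEA4-1 the lowest vil1-1 library and the highest Col-0 libraries each held 1 count, so that separation is library scaling alone. LEA18 rose by 2.12 (interval 1.94 to 2.30) and LEA4-1 by 2.14 (approximate SE 0.12) on the log2 scale in the authors' deposited table.

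The seed class of LEA_4, whose proteins carry a repeated motif that folds into a helix on drying, was higher in nearly all its genes. Of its 11 genes, 10 rose in the authors' deposited table and AT2G42560 was not called. LEA7 (AT1G52690, chromosome 1, 19619724 to 19621534, plus strand) had 8, 18 and 8 counts in vil1-1 and 3, 3 and 2 counts in Col-0. AT3G15670, whose protein is 75.7% identical to that of LEA7 over the shorter of the pair, had 8, 7 and 6 counts in vil1-1 and 1, 1 and 0 in Col-0. Neither gene's groups overlapped in CPM, at 220.6 ± 126.9 CPM in vil1-1 and 45.8 ± 15.2 CPM in Col-0 for LEA7 (SD, n = 3 each). In the authors' deposited table LEA7 rose by 2.23 (interval 2.06 to 2.41) and AT3G15670 by 2.32 (interval 2.14 to 2.51) on the log2 scale. AT4G36600 (2.43), ECP63 (2.28), AT3G17520 (2.18) and AT4G21020 (2.15) had rises of like size in the authors' deposited table. AT5G44310 (1.93), AT1G72100 (1.89), AT2G18340 (1.84) and AT3G53040 (1.73) made up the rest of the called genes there. AT2G18340, called at an adjusted p of 0.0140 in the authors' deposited table, had 0 counts in all 6 libraries. In the counts AT3G17520 had 2, 3 and 4 in vil1-1 and 3, 1 and 1 in Col-0, and AT5G44310 had 2, 2 and 3 in vil1-1 and 0, 3 and 1 in Col-0, so their groups overlapped. The other 7 seed LEA_4 genes had fewer than 10 counts over the 6 libraries. LEA7 overlaps an annotated gene on the opposite strand, whose reads cannot be told apart without a known strand setting.

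AT2G42560, the other seed gene of this subfamily, was near 0. Its log2 fold change in the authors' deposited table was -0.02, with an interval of -0.90 to 0.86. The lowest bound among the called seed LEA_4 genes in the authors' deposited table was 0.77, for AT2G18340, so the intervals of these 2 genes overlapped. AT2G42560 had 1 count in vil1-1 and 1 in Col-0 over 3 libraries each, and a mean of 3.23 CPM in the authors' deposited table.

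The vegetative and unassigned LEA_4 genes did not all move one way. COR15A and COR15B, cold-induced neighbours whose proteins protect chloroplast membranes during freezing, rose in the authors' deposited table by 0.59 (interval 0.31 to 0.87) and 0.81 (interval 0.36 to 1.27) on the log2 scale. COR15A had 3 counts in vil1-1 and 2 in Col-0, and COR15B 1 in vil1-1 and 2 in Col-0. The pair shares 77.0% protein identity, and whether their reads are shared was not examined. COR15B overlaps another gene on the opposite strand, so its reads may be mixed with those of that gene. AT3G02480, an unassigned small LEA_4 gene, had 5, 5 and 7 counts in vil1-1 and 3, 2 and 0 counts in Col-0. Its CPM ranges did not overlap, and its log2 fold change in the authors' deposited table was 1.79 (interval 1.62 to 1.97). AT2G03850 was the 1 LEA gene that fell, with a log2 fold change of -0.75 (interval -1.02 to -0.49) in the authors' deposited table. It had 2, 1 and 0 counts in vil1-1 and 1, 1 and 0 in Col-0, too few to show a direction. The protein of AT2G03850 is 70.4% identical to that of AT2G03740, and whether reads of the pair are shared was not examined. UNE15 (-0.04, interval -1.23 to 1.16) and AT4G13230 (1.93, interval -2.28 to 6.14) had 0 counts in every library and were not called in the authors' deposited table.

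Both LEA_5 genes, the Em proteins of the dry embryo, rose. EM1 (AT3G51810) had a log2 fold change of 1.89 (interval 1.54 to 2.24) and EM6 (AT2G40170) one of 1.33 (interval 0.99 to 1.67) in the authors' deposited table. EM1 had 2, 2 and 1 counts in vil1-1 and 1, 0 and 2 in Col-0. EM6 had 0, 4 and 1 counts in vil1-1 and 0, 1 and 1 in Col-0, so the groups overlapped for both genes. The annotation describes EM6 as activated by binding of ABI5 to its promoter.

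In the PvLEA18 subfamily the neighbours AT2G23110 and AT2G23120 rose by unequal amounts. The authors' deposited table gives AT2G23110 a log2 fold change of 1.17 (interval 0.97 to 1.37) and AT2G23120 one of 0.45 (interval 0.26 to 0.64). AT2G23110 had 4, 8 and 3 counts in vil1-1 and 0, 3 and 6 in Col-0. AT2G23120, the vegetative member, had 2, 1 and 1 counts in vil1-1 and 2, 2 and 2 in Col-0. The groups overlapped for both, and the mean CPM of AT2G23120 was lower in vil1-1, at 26.2 ± 14.4 CPM against 34.0 ± 6.0 CPM in Col-0 (SD, n = 3 each). Opposite to the sign of its rise in the authors' deposited table, this difference lay within the spread of the libraries.

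LEA_3 holds the most abundant LEA transcript of these seedlings, SAG21, which encodes a mitochondrial protein tied to oxidative stress tolerance. SAG21 (AT4G02380, chromosome 4, 1046042 to 1047105, minus strand) had 57, 43 and 76 counts in vil1-1 and 32, 53 and 69 counts in Col-0. The groups overlapped, at 1096 ± 194 CPM in vil1-1 and 840.0 ± 210.4 CPM in Col-0 (SD, n = 3 each), and the counts did not call it (0.40 on the log2 scale, SE 0.20, adjusted p = 0.393 by edgeR). The authors' deposited table gives SAG21 a rise of 0.49 (interval 0.36 to 0.62) on the log2 scale. DI21 (AT4G15910, chromosome 4, 9028262 to 9029477, plus strand), a drought- and ABA-responsive gene, had 22, 24 and 27 counts in vil1-1 and 9, 15 and 11 counts in Col-0. All vil1-1 libraries were above all Col-0 libraries, at 460.6 ± 30.8 CPM in vil1-1 and 193.3 ± 28.6 CPM in Col-0 (SD, n = 3 each). DI21 rose by 1.26 (SE 0.31, edgeR adjusted p = 0.00587) in the counts and by 1.25 (interval 1.09 to 1.40) in the authors' deposited table. Not every Col-0 library had enough counts of DI21 for the filter on low counts, so its vil1-1 libraries were needed for it to be tested. LEA3 (AT1G02820, 0.72, approximate SE 0.88) and AT3G53770 (-1.82, interval -6.11 to 2.48) had low levels in the authors' deposited table, with 2 and 0 counts in vil1-1 and 0 and 0 in Col-0, and were not called.

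LEA_2 proteins are the structured members of the family, with a folded domain. LEA14 (AT1G01470), which responds to wounding and light stress, rose by 0.58 (interval 0.29 to 0.88) on the log2 scale in the authors' deposited table, on 3 counts in vil1-1 and 1 in Col-0. AT2G46140 had a log2 fold change of 0.26 (interval 0.07 to 0.45, adjusted p = 0.0829) by the authors' deposited table and was not called. AT2G44060 (chromosome 2, 18226263 to 18228293, plus strand) had -0.14 (interval -0.31 to 0.02) in the authors' deposited table. In the counts AT2G44060 had 66, 23 and 29 in vil1-1 and 41, 50 and 41 in Col-0. Its vil1-1 replicate 1 lay above, and the other vil1-1 libraries below, every Col-0 library. Its log2 fold change came to 0.06 by edgeR (SE 0.25, adjusted p = 0.951), or -0.66 (adjusted p = 0.155) without vil1-1 replicate 1. At 777 ± 545.4 CPM in vil1-1 and 741.8 ± 102.3 CPM in Col-0 (SD, n = 3 each), its counts also stood well above the mean of 199 CPM in the authors' deposited table.

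None of the 6 SMP genes and neither AtM gene was called, although all 8 belong to the seed class. RAB28 (AT1G03120), annotated with a role in the ion balance of the late embryo, came nearest in the authors' deposited table, at 1.64 (interval 0.52 to 2.76, adjusted p = 0.0543). AT3G22490 (0.94), AT5G27980 (0.52), ECP31 (0.47), AT5G53270 (0.16) and AT5G53260 (-1.16) had intervals that held 0 in the authors' deposited table. M17 (0.67, interval 0.07 to 1.27, adjusted p = 0.218) and M10 (0.37, interval -0.63 to 1.36) were not called there either. These genes had means of 0.85 to 6.04 CPM in the authors' deposited table. In the counts the SMP genes held 0 in vil1-1 and 2 in Col-0, and the AtM genes 2 in vil1-1 and 0 in Col-0. The upper bounds of all 6 SMP intervals exceed 2, so a log2 rise of 2 lies within the upper bound of each.

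**Figure D2:**
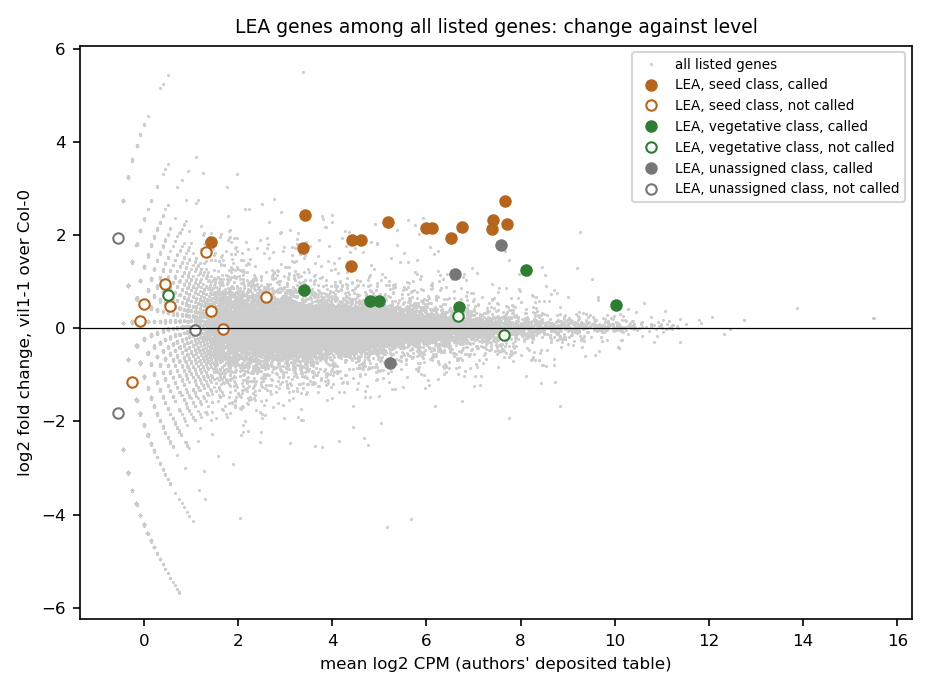
Log2 fold change, vil1-1 relative to Col-0 (vertical axis), against mean log2 CPM (horizontal axis) in the authors' deposited table, for the listed LEA genes by class (circles, filled where the adjusted p was under 0.05) and all 25005 listed genes (grey points). Seed genes above a mean log2 CPM of 2 lie between 0.67 and 2.74, above the vegetative genes at similar levels in most cases.

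The median rise was larger in seed genes than in vegetative genes. By the values of the authors' deposited table, 15 of 24 seed genes and 6 of 9 vegetative genes rose and none of either class fell. Their median log2 fold changes in the authors' deposited table were 1.86 for the seed class, 0.58 for the vegetative class and 0.57 for the 6 listed unassigned genes. At a mean log2 CPM of 2 or more, a limit chosen after the values were seen, 14 of 15 seed genes were called higher by the authors' deposited table and the median was 2.14. At that level 6 of 8 vegetative genes were called higher by the authors' deposited table and the median was 0.54, beside 5.5% called higher and a median of 0.00 over all 15068 genes. Below that level 1 of 9 seed genes was called in the authors' deposited table, beside 0.604% called higher over all genes. Called seed genes ranged from 1.33 (EM6) to 2.74 (LEA4-5) in the authors' deposited table. Called vegetative genes ranged there from 0.45 (AT2G23120) to 1.25 (DI21), so these values did not overlap. The intervals of EM6 (0.99 to 1.67) and DI21 (1.09 to 1.40) did overlap in the authors' deposited table. With genes not called included, the classes overlapped there, from -1.16 to 2.74 for seed genes and -0.14 to 1.25 for vegetative genes. No test was made over the members of a class, since they were chosen with results of these data known.

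Summed over a class, the counts also gave a larger ratio for seed genes than for vegetative genes. The unassigned class, with 11, 14 and 10 counts in vil1-1 and 4, 6 and 6 in Col-0, lay between them. Its log2 ratio was 1.35, although its median in the authors' deposited table was close to that of the vegetative class. The seed class held 40, 75 and 51 counts in vil1-1 and 12, 13 and 16 counts in Col-0. That came to 1059 ± 399.6 CPM in vil1-1 and 229.6 ± 29.7 CPM in Col-0 (SD, n = 3 each), a ratio of 4.61. All vil1-1 libraries were above all Col-0 libraries, with vil1-1 replicate 2 highest at 1520 CPM. The vegetative class held 153, 94 and 138 counts in vil1-1 and 87, 124 and 123 counts in Col-0, at 2449 ± 717 CPM in vil1-1 and 1850 ± 63.7 CPM in Col-0 (SD, n = 3 each). Its vil1-1 libraries ran from 1905 CPM in replicate 2 to 3261 CPM in replicate 1, and the groups overlapped, since Col-0 replicate 3 was also at 1905 CPM. The log2 ratio of the vegetative sums was 0.40, and 0.14 without vil1-1 replicate 1, the library in which AT2G44060 was high. DI21 gave 44.6% of the rise in the vegetative sum, and the log2 ratio was 0.26 without this gene. LEA4-5 gave 27.0% of the rise in the seed sum, whose log2 ratio was 2.21 with this gene and 2.00 without. LEA genes together took 0.435%, 0.371% and 0.314% of all counts in vil1-1 replicates 1, 2 and 3, and 0.211%, 0.215% and 0.225% in Col-0 replicates 1, 2 and 3. Seed coat markers, a check for adhering maternal tissue, summed to 385.1 to 521.3 CPM in vil1-1 and 184.2 to 294.3 CPM in Col-0. Of the 11 seed coat genes 9 are listed in the authors' deposited table, where 1 rose, SBT1.7 (0.57), and none fell. SBT1.7 gave most of these counts. MUM4, next in counts, had 11 in vil1-1 and 16 in Col-0 and was not called in the authors' deposited table (-0.21). The 9 listed genes had a median log2 fold change of -0.21 in the authors' deposited table, and only 4 had a value above 0. BAN, TT1, TT10, TT12 and TT16 had 0 counts in every library. Endosperm markers summed to 0 to 162.1 CPM in vil1-1 and 77.5 to 135.2 CPM in Col-0, all from EPR1, and 0 of 5 were called in the authors' deposited table. The part of either tissue in the LEA differences was not tested.

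**Figure D3:**
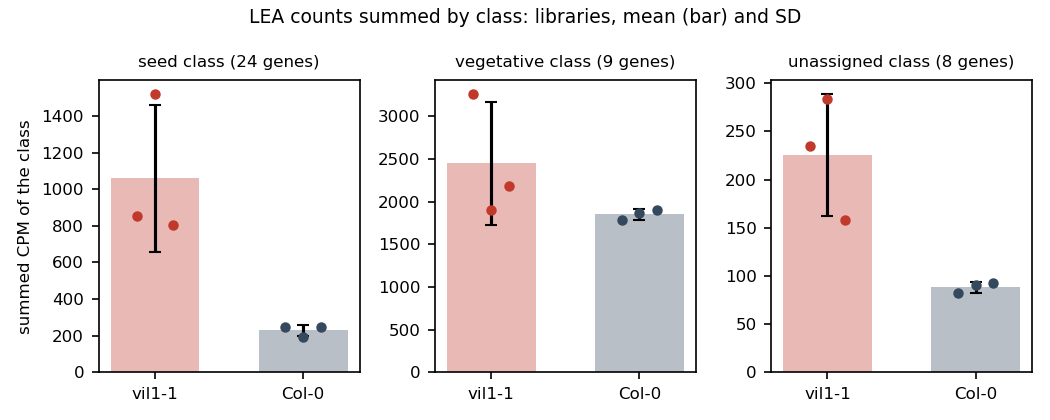
Summed CPM of the seed, vegetative and unassigned LEA classes (vertical axis) in each library (points), with the mean (bar) and SD of the 3 libraries per genotype. The seed sums are 806 to 1520 CPM in vil1-1 and 195 to 248 CPM in Col-0, while the vegetative sums meet at 1905 CPM.

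Single genes could be tested from the counts only where these were high enough. Of the 41 genes, 11 had no count in any library and 13 had 10 or more. Among these 13, the CPM ranges of 7 genes lay wholly above Col-0 in vil1-1 and none wholly below, while 6 overlapped. With AT4G21020, at 1, 3 and 2 counts in vil1-1 and 1, 0 and 1 in Col-0, 8 of all 41 genes lay wholly above, although for AT4G21020, as for LEA4-1, the nearest libraries of the groups each held 1 count and differ by library scaling alone. Over all 4479 genes with 10 or more counts, 6.25% had vil1-1 wholly above and 6.52% wholly below, and over the 14869 genes with any count 3.75% lay above and 3.33% below. The 7 genes were LEA4-5, LEA7, AT3G15670, AT3G02480, LEA18, LEA4-1 and DI21. Only 4 genes passed the filter on low counts, SAG21, AT2G44060, DI21 and LEA4-5, and edgeR called the last 2, beside 2.76% of the 942 tested genes called higher and 0.955% lower. LEA4-5 passed that filter through its vil1-1 counts only, so it had to be high in vil1-1 to be tested. DI21 needed its vil1-1 libraries as well, since not every Col-0 library had enough counts of it for the filter. With a looser filter of more than 1 CPM in at least 3 libraries, LEA7 (2.18, edgeR adjusted p = 0.0259) and AT3G15670 (3.30, edgeR adjusted p = 0.0336) were called as well. AT3G15670 met this filter only with its vil1-1 libraries, since not every Col-0 library held a count. The call of DI21 was lost without vil1-1 replicate 2 (1.21, edgeR adjusted p = 0.0512), with no filter (1.21, edgeR adjusted p = 0.0545) and in DESeq2 (1.26, adjusted p = 0.151).

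**Figure D4:**
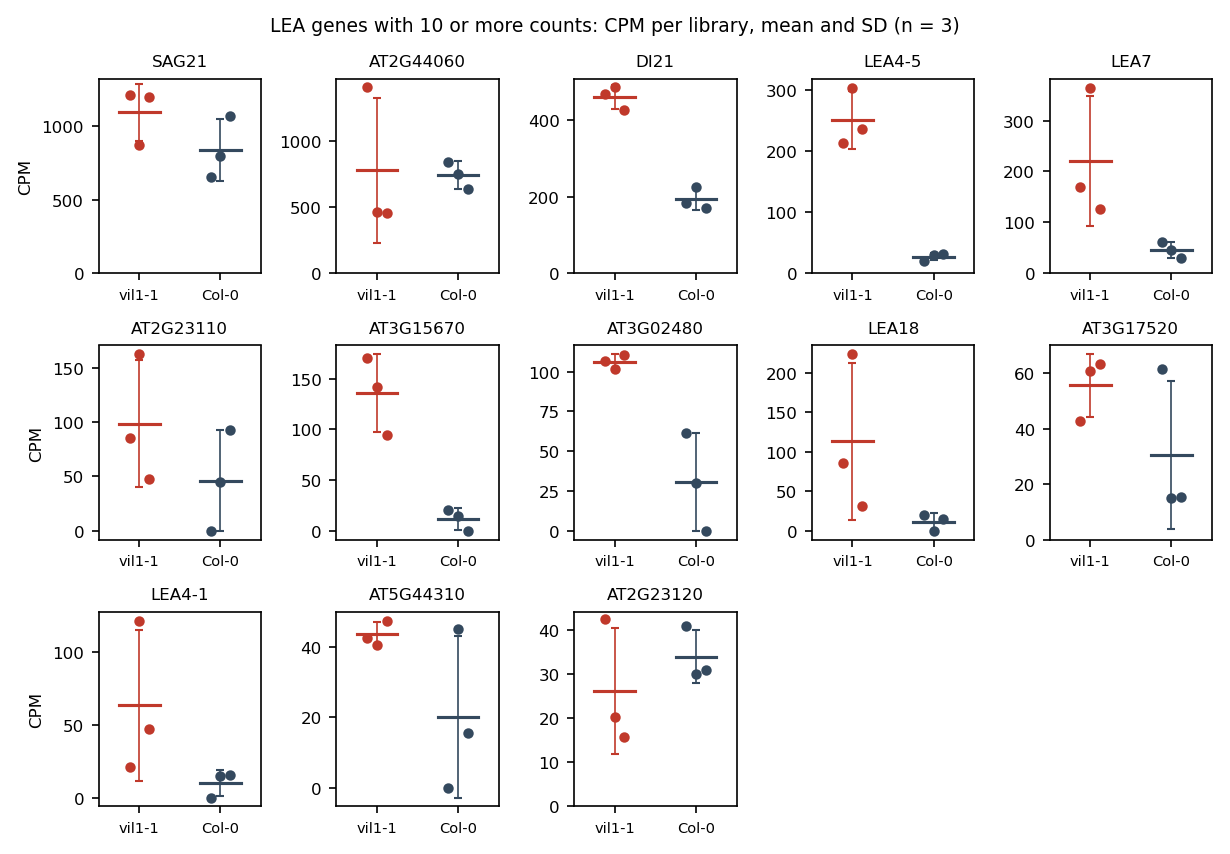
CPM (vertical axis) of the 13 LEA genes with 10 or more counts in each vil1-1 and Col-0 library (points), with the mean (line) and SD (bar) of 3 libraries. In LEA4-5 and DI21 the groups are far apart, and in AT2G44060 vil1-1 replicate 1, at 1407 CPM, is well above the other vil1-1 libraries.

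Per kilobase of exon, levels covered a wide range. SAG21 was highest in the authors' deposited table, at a mean of 1076 CPM per kilobase, followed by AT3G02480 at 351.4, DI21 at 301.6, LEA18 at 263.4, LEA7 at 232.4 and LEA4-5 at 226.2. In the count files AT2G44060 came second, at 548 CPM per kilobase in vil1-1 and 523 in Col-0, after SAG21 at 1132 in vil1-1 and 868 in Col-0. LEA4-5 stood at 278.4 CPM per kilobase in vil1-1 and 30.1 in Col-0. The median of the class in the authors' deposited table was 11.1 CPM per kilobase for seed genes and 107.6 for vegetative genes. SMP genes were the lowest subfamily by median there, at 1.36 CPM per kilobase.

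Promoters of these genes were searched for motifs known in ABA and cold signalling, since many of the genes moved together. The window was the 250 bases before and 50 after the annotated gene start in RefSeq's TAIR10.1 annotation. The ABRE core ACGTG, the site of the ABA-responsive bZIP factors, was found in the windows of 21 of 24 seed genes (87.5%) and 4 of 9 vegetative genes (44.4%), against 26.7% of 27443 protein-coding genes. The G-box CACGTG, which contains the ABRE core, was found in 17 seed genes (70.8%) and 1 vegetative gene (11.1%), against 7.68% of all. At least 2 separate ABRE cores were found in 79.2% of seed windows and 11.1% of vegetative windows, against 6.19% of all. The DRE core CCGAC of cold and drought response was found in 54.2% of seed windows and 44.4% of vegetative windows, against 15% of all, and the RY core CATGCA, bound by ABI3-type factors, in 25% of seed windows and 0% of vegetative windows, against 9.72% of all. Both strands were searched and overlapping matches counted as 1 site. All 18 genes that were called higher with a log2 fold change of at least 1 in the authors' deposited table had an ABRE core, as did 11 of the other 23 genes. AT2G42560, not called, had 4 ABRE cores, and the SMP gene AT5G53270 had 3. A match describes the letters of a window and no binding was measured.

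The windows of 4 genes, each with the most counts of its subfamily, are written out as examples. LEA4-5 (chr5:2090381-2090680, minus strand) and LEA7 (chr1:19619474-19619773, plus strand) are seed genes that rose. SAG21 (chr4:1047056-1047355, minus strand) and AT2G44060 (chr2:18226013-18226312, plus strand) are abundant vegetative genes, of which SAG21 also rose in the authors' deposited table (log2 fold change 0.49). Each is written 5′ to 3′ in the direction of transcription, from RefSeq's TAIR10.1 sequence, with every ABRE core of either strand in capitals.
LEA4-5: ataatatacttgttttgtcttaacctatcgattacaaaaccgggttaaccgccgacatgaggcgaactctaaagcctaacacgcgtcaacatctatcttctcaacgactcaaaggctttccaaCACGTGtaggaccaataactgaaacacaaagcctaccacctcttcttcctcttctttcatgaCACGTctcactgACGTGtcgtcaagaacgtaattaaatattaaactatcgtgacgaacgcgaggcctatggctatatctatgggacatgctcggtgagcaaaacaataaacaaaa
LEA7: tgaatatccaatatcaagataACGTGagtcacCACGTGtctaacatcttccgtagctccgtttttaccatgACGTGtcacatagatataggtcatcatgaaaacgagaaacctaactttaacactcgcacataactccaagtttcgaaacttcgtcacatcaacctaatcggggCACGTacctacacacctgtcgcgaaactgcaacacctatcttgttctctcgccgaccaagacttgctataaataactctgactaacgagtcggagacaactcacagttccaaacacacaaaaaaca
SAG21: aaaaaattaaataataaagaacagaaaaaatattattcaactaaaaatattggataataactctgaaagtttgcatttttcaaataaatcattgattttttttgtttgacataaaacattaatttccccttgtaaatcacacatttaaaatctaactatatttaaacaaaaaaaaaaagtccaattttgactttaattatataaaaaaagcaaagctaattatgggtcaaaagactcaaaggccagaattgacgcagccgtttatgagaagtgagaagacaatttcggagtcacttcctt
AT2G44060: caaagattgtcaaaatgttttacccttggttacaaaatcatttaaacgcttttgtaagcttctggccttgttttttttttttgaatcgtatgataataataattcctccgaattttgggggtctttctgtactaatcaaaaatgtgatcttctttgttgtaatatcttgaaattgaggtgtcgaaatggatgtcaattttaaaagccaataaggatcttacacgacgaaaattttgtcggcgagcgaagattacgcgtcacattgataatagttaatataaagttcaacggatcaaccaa
There are 3 separate ABRE cores in LEA4-5 and 4 in LEA7, 1 of them within a G-box in each, and none in SAG21 or AT2G44060. Other vegetative genes did have ABRE cores, 2 in LEA14 and 1 each in COR15A, AT2G46140 and DI21.

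**Figure D5:**
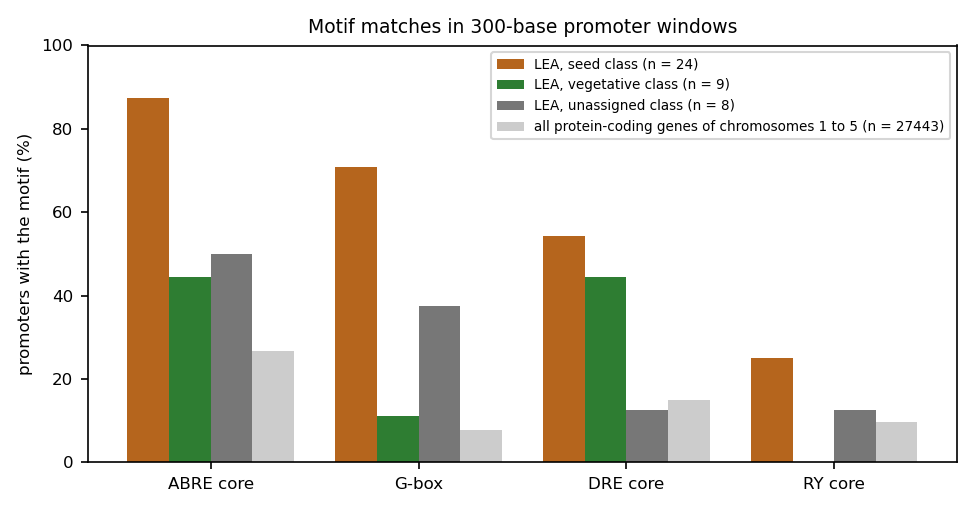
Share of promoter windows with at least 1 match (vertical axis, percent) for 4 motifs (horizontal axis), in the seed, vegetative and unassigned LEA genes and in all protein-coding genes of the nuclear chromosomes. The ABRE core is in 87.5% of seed, 44.4% of vegetative, 50% of unassigned and 26.7% of all windows.

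Several genes encode similar proteins, and how far the reads of such pairs can be kept apart was not examined. Translated RefSeq coding sequences were 70% or more identical in 8 pairs of the same subfamily, among them AT5G53260 and AT5G53270 (82.4%), AT3G22490 and ECP31 (81.3%), EM1 and EM6 (77.2%), and M17 and M10 (72.9%). Within each of these 4 pairs the intervals overlapped in the authors' deposited table. LEA_5, PvLEA18 and LEA_1 proteins were the most hydrophilic, with median hydropathy scores of -1.44, -1.06 and -1.04 (Kyte-Doolittle mean per residue, lower meaning more hydrophilic). LEA_3, AtM, SMP and LEA_2 proteins, at -0.38, -0.36, -0.30 and 0.06, were less so.

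Some members of related lists were also called, beside 3.56% of all genes called higher in the authors' deposited table. Of the 10 dehydrin genes, the LEA subfamily left out here, 3 rose and none fell in the authors' deposited table, AT2G21490 (2.23), RAB18 (1.58) and XERO1 (1.43), and the list's median was 0.34 on the log2 scale. Of 11 seed maturation regulators, 10 are listed in the authors' deposited table, where ABI3 (1.20), ABI4 (0.90) and ABI5 (0.82) rose and none fell, with a list median of 0.63 on the log2 scale. In the counts ABI3 had 34 in vil1-1 and 17 in Col-0. ABI4 had 4 in vil1-1 and 3 in Col-0, and ABI5 had 0 in vil1-1 and 1 in Col-0, too few to show a direction. Whether these lists differ from the 41 genes was not tested.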

How the data were processed

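The submitters' processing notes name Bowtie2, featureCounts, edgeR and the TAIR10 build, without versions or order. The deposited files hold raw counts per gene, 1 file per library. The authors' deposited table lists per gene a log2 fold change, the average log2 CPM, the F score of the test and its p-value, unadjusted. The sources used here give neither library kit, strand setting nor multi-mapping, and do not state which libraries the table rests on. The design text calls the 3 replicates biological.

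Computed here were CPM from library totals, Benjamini-Hochberg adjustment over all 25005 listed genes, and edgeR's quasi-likelihood test (edgeR 4.0.16, R 4.3.3; TMM, default filter, genotype only, adjusted p under 0.05) over all 6 libraries. In 5 simulated sets for this comparison, with 200 genes changed and 954.2 tested on average, it recovered 72.5% of 2-fold and 100% of 4-fold changes, and 4.27% of calls were false. The changed genes were drawn from those with higher counts, with the same dispersion for all genes. Recovery was counted only among genes that passed the filter. In the real data 4 LEA genes passed that filter, so these rates do not cover the other members. Approximate 95% intervals are 1.96 times the log2 fold change over the square root of the authors' F score. For the 19 members with F under 20, a chi-square test on F gave the p-values to within 0.000281 in log10. Motifs, exon lengths and translated sequences come from RefSeq's TAIR10.1 annotation and genome, and identities from Biopython 1.88. Libraries of a group differed beyond sampling noise, with a chi-square per degree of freedom of 1.10 to 1.21.

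The members, subfamilies, classes, gene lists and tests were chosen with earlier results of these data known. Members were named if they had 10 or more counts, were tested by edgeR, had an adjusted p under 0.05 in the table, belonged to the vegetative class, or led their subfamily in level there. The rest were picked with their values in view. DESeq2 1.42.0 and limma-voom (limma 3.58.1) were alternatives.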

Additional observations from a re-analysis of the deposited data

How the results depend on the processing

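The count of 35 genes called by edgeR over all genes became 8 with DESeq2 and 21 with no filter, and lay between 19 and 36 with 1 library left out. It was 19 without vil1-1 replicate 2. The 2 LEA genes called became 1 with DESeq2 and 4 with the filter of more than 1 CPM in at least 3 libraries, and lay between 1 (without vil1-1 replicate 2) and 3 (without Col-0 replicate 1) with 1 library left out. Same-numbered libraries did not deviate together (correlations of 0.016, -0.010 and -0.017 over 4479 genes), and no label says that they share a batch. With the replicate number as a block, edgeR called 35 genes and 2 LEA genes, so the block changed no count of calls. AT2G44060, not called in any setting, turned to a log2 fold change of -0.14 with limma-voom, -0.016 with the looser filter, -0.018 with the replicate block, and -0.66 to 0.38 with 1 library left out; the cause was not tested. LEA4-5 kept its call in each setting, at 2.96 to 3.18 with 1 library left out. Under the default filter it was tested through its vil1-1 counts only. Log2 ratios of summed CPM lay between 0.66 and 0.89 for all 41 genes, 1.85 and 2.37 for the seed class, and 0.14 and 0.56 for the vegetative class with 1 library left out. In the authors' deposited table, the 23 genes called higher became 22 at an adjusted p under 0.01, 18 with Bonferroni adjustment, 24 with a mean log2 CPM of at least 0, and 18 where a log2 change of 1 or more in size was asked. The 1 gene called lower became 0 in that last setting, since AT2G03850 had -0.75.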
